A study of Mus musculus with 8 samples.

Results

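The calcium handling genes of cardiomyocytes are described here in whole hearts of mice with a muscle-directed conditional gene knockout (KO) and of wild-type (WT) mice. The 10 genes were taken by name, as every probe set whose platform annotation names Ryr2, Trdn, Casq1, Casq2, Hrc, Atp2a2, Pln, Cacna1c, Slc8a1 or Jph2. They were found on 28 of the 34945 probe sets that name 1 gene, out of 18193 genes in all. 7 of the 10 had several probe sets and 3 (Casq1, Casq2 and Hrc) had 1. For each gene the probe set with the highest mean log2 intensity over all arrays gives the values below, and the other probe sets are described after them.

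Each heartbeat begins with calcium entering the cardiomyocyte through the L-type channel, whose pore is Cacna1c, and this entry opens the ryanodine receptor Ryr2 in the sarcoplasmic reticulum, the cell's internal calcium store. Calcium leaves the store, the muscle contracts, and relaxation follows as the pump SERCA2 (Atp2a2), held in check by phospholamban (Pln), returns calcium to the store while the sodium-calcium exchanger Slc8a1 carries the rest out of the cell. Inside the store, calsequestrin (Casq2 in heart, Casq1 mainly in fast skeletal muscle) and the histidine-rich calcium-binding protein (Hrc) bind calcium, triadin (Trdn) ties calsequestrin to the release channel, and junctophilin 2 (Jph2) holds the store's membrane against the surface membrane where the L-type channels sit.

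RNA came from 8 hearts, 1 array each, in 4 groups of 2 female mice. At 4 weeks there were 2 WT and 2 KO littermates, and at 10 weeks another 2 WT and 2 KO littermates. The KO carries a conditional gene deletion labelled MCK, the abbreviation of muscle creatine kinase, whose promoter is active in heart and skeletal muscle cells. Which alleles the WT littermates carry is not given in the sources used here, and neither is a batch or processing day. Because each age is a separate set of littermates, age and litter cannot be told apart in any comparison between ages. The 2 mice of a group are separate animals, levels are log2 intensities, and differences are KO minus WT with their SE from a fit that shares 1 estimate of the spread over the 4 groups (limma, moderated, 9.33 degrees of freedom). A gene was said to rise or fall where its Benjamini-Hochberg adjusted p over all 18193 genes was under 0.05.

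The arrays were alike in their median intensity, which ran from 34.3 to 37.4. All 13 cardiomyocyte markers were measured, and their summed intensity was 126017 to 145713 on the 10-week WT arrays and 127069 to 137602 on the KO arrays. 1 array stood apart from its group: 10-week WT mouse 1 lay at -43.35 on the second principal component (24.3% of the variance) and WT mouse 2 at -4.18. On that array the sum of 5 liver markers was 4767 against 510 on WT mouse 2, and the sum of 5 kidney markers was 934 against 224. High liver markers were not particular to it: 4-week KO mouse 2 was at 4529 against 283 on KO mouse 1, and 4-week WT mouse 2 at 2989 against 1054 on WT mouse 1. The kidney sums of those 4 arrays were 108 to 308. 9 of the 10 calcium handling genes were lower on 10-week WT mouse 1 than on WT mouse 2, all but Casq1. This was not particular to that group. On mouse 1 against mouse 2, 8 of the 10 were lower in 10-week KO, 8 in 4-week KO and 7 in 4-week WT hearts. The share over all genes was not computed. Results that change without 10-week WT mouse 1 are given both ways.

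At 10 weeks, 5 of the 10 genes fell in KO hearts (Hrc, Ryr2, Trdn, Casq1 and Pln) and none rose. Over all genes, 6.89% fell and 5.19% rose. Among genes at or above the median level, to which the members belong, 13.3% fell. The median difference of the 10 genes was -0.54 on the log2 scale, against 0.00 over all genes (0.0048). The 10 genes were chosen with earlier results of these data known, so an excess over all genes may be partly built into the choice. The genes that fell act inside the store and at its release channel, or in the case of Pln on its pump. The pump Atp2a2, the pore of the L-type channel, the exchanger, junctophilin 2 and the cardiac calsequestrin did not pass the test on their brightest probe sets.

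**Figure D1:**
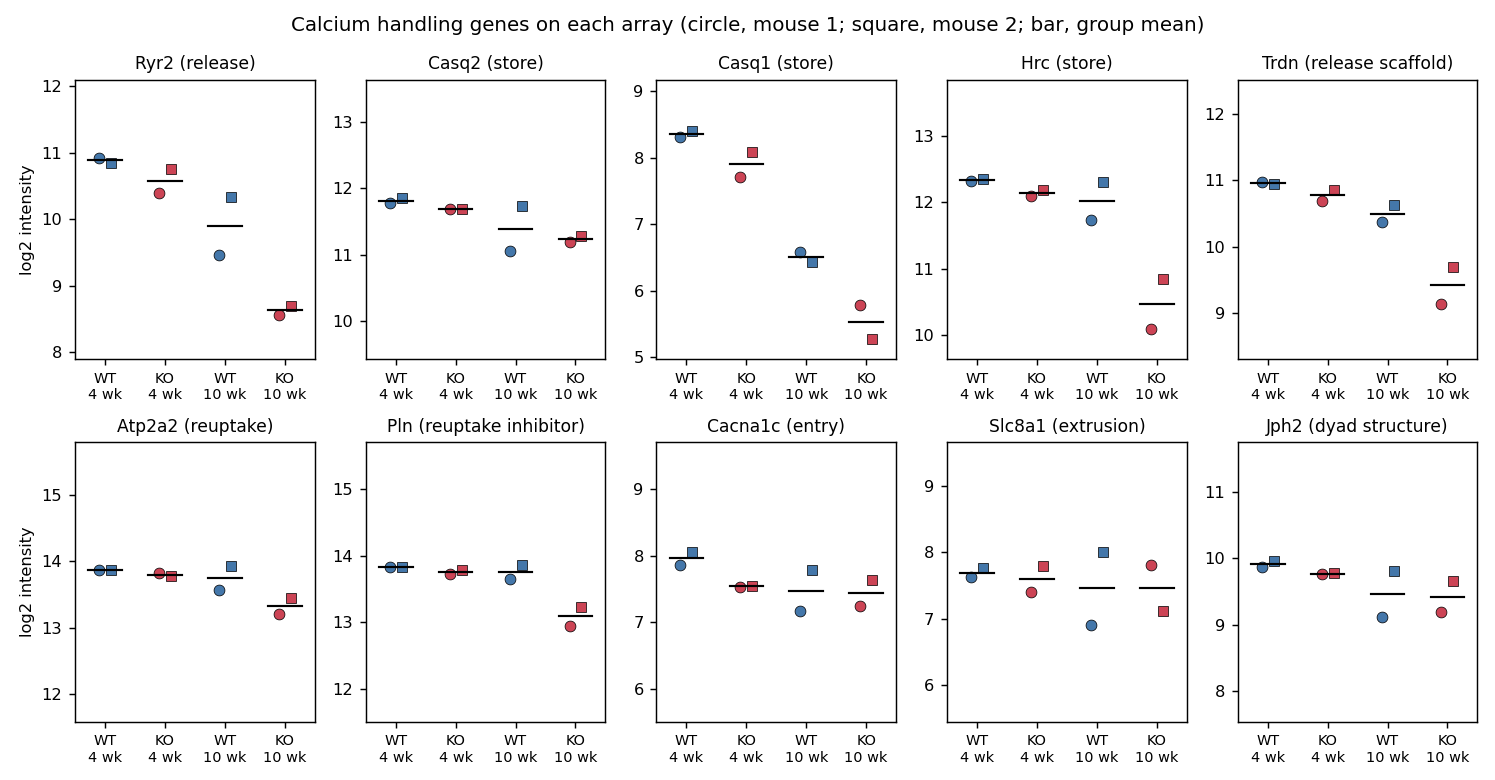
Log2 intensity of the 10 calcium handling genes on each of the 8 arrays, by group; circles are mouse 1, squares mouse 2, bars the mean of the 2 mice, and each vertical axis spans the same number of log2 units. The 10-week KO arrays of Hrc, at 10.10 and 10.85, lie below all others of that gene, while those of Casq2 and Jph2 lie between the WT arrays of their age.

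The release channel Ryr2 had log2 intensities of 9.47 and 10.33 in the 10-week WT hearts and of 8.56 and 8.70 in the KO hearts. The KO arrays lay below both WT arrays, which differed from each other by more than the KO arrays did. Ryr2 fell by 1.27 ± 0.25 (SE, n = 2 per group; limma adjusted p = 0.00938), to 41.5% of the WT level. The size of the fall depends on the WT arrays: it was 1.70 without WT mouse 1 and 0.84 without WT mouse 2. Without KO mouse 1 the adjusted p was 0.0706, and with only the 4 arrays of this age in the fit it was 0.0545.

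Trdn, which anchors calsequestrin beside the channel, was at 10.36 and 10.62 in the WT hearts and at 9.14 and 9.70 in the KO hearts. The groups did not overlap. The difference was -1.07 ± 0.18 (SE, n = 2 per group; limma adjusted p = 0.00536), which left 47.5% of the WT level. Trdn passed the test whichever array was left out, with an adjusted p of 0.00389 to 0.0321.

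Hrc, a calcium buffer of the store lumen that also binds triadin, had the largest fall of the 10. Its WT arrays were at 11.73 and 12.31 and its KO arrays at 10.10 and 10.85, without overlap. Hrc fell by 1.55 ± 0.25 (SE, n = 2 per group; limma adjusted p = 0.00375), to 34.2% of WT. It passed the test under every alternative tried, and with each array left out its difference ran from -1.92 to -1.17.

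Of the 2 calsequestrins, which bind much of the calcium held in the store, Casq1 fell at 10 weeks and Casq2 did not pass the test. The difference between the 2 was not tested. The only probe set of Casq2, the form of heart muscle, is of the kind marked as sharing sequence among transcripts. The alternative without such probe sets did not test the gene. Casq2 was at 11.06 and 11.73 in WT and at 11.20 and 11.28 in KO. Its KO arrays lay between the WT arrays, and the difference of -0.16 ± 0.19 (SE, n = 2 per group) did not pass the test, with limma's adjusted p at 0.718 and a 95% interval from -0.59 to 0.28. Casq2 depends on which WT mouse is kept: without WT mouse 1 it was at -0.49 (adjusted p = 0.0496), and without WT mouse 2 at 0.18.

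Casq1, the form of fast skeletal muscle, was at 6.58 and 6.42 in WT and at 5.78 and 5.27 in KO. The groups did not overlap, and Casq1 fell by 0.98 ± 0.19 (SE, n = 2 per group; limma adjusted p = 0.00967), to 50.9% of WT. Casq1 was the dimmest of the 10 genes, at a mean log2 intensity of 7.07. Its KO intensities were 55.1 and 38.6, where the medians of those arrays were 37.4 and 36.2. The size of the fall is less certain at so low a level. Without KO mouse 2 the difference was -0.72 with an adjusted p of 0.0655. Relative to its 4-week WT mean, the log2 difference of Casq1 minus Casq2 was -1.02 and -1.84 in the 10-week WT hearts and -1.95 and -2.55 in the KO hearts. The KO change in that difference was -0.82 at 10 weeks, with both KO arrays below both WT arrays, but the WT arrays were farther from each other than the groups were, and the change was not tested.

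As Casq1 is a skeletal muscle gene, the skeletal markers are given beside it. Of 11 measured, 1 fell (Mybpc2, a fast myosin-binding protein, by 1.73) and 1 rose (Tnnt3, fast troponin T, by 0.69). Their summed intensity was 421 to 464 in the 10-week WT hearts and 338 to 344 in the KO hearts, and 442 to 486 in the 4-week WT hearts. As a list the markers were dim, with a mean log2 intensity of 4.68 to 5.04 over the 8 arrays, below the median of every array. The sums were therefore not read as a measure of skeletal muscle. The markers' part in the Casq1 result was not tested.

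The promoters of Hrc, Pln, Casq1 and Casq2 are shown because the first 3 of these genes fell at 10 weeks and Casq2 did not. The sequences are the 250 bases before the gene's start in RefSeq's GRCm38.p6 annotation, written 5′ to 3′ on the gene's strand. They lie at chr7:45335019-45335268 (Hrc, plus strand), chr10:53337436-53337685 (Pln, plus strand), chr1:172219896-172220145 (Casq1, minus strand) and chr3:102086165-102086414 (Casq2, plus strand). Capitals mark E-boxes, the letters CANNTG, which read the same on both strands and are bound by basic helix-loop-helix factors, and the MEF2 site, an A- and T-rich motif bound by the muscle factor MEF2.
Hrc: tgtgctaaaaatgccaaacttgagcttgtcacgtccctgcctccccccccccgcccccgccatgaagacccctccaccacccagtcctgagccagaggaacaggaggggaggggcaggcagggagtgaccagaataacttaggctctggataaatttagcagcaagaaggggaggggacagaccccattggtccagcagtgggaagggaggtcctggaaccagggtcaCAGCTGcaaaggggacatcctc
Pln: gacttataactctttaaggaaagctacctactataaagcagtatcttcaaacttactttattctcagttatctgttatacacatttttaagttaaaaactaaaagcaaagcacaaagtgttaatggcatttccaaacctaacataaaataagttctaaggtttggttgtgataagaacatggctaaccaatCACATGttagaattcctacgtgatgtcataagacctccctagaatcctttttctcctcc
Casq1: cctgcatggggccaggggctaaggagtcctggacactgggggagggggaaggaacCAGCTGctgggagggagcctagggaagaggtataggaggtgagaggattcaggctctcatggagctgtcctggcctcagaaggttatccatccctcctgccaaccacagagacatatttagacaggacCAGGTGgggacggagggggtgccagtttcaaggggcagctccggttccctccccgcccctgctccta
Casq2: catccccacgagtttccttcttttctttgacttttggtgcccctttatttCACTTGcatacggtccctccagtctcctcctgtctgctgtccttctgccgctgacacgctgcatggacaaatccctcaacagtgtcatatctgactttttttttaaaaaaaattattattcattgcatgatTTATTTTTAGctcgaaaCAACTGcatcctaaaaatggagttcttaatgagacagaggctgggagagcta

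Motifs were searched on both strands of the full 300-base window, which adds the first 50 bases after the start. The table held 11 windows of 8 of the 10 genes. Atp2a2 and Trdn were not among them. An E-box stood in 11 of the 11 windows, against 72.3% of the 32841 promoters of the table. The windows are not independent of each other. The 2 windows of Jph2 overlap almost fully, so their matches are the same stretches of sequence. The MEF2 site was found in Casq2 alone, at bases 182 to 191 of the window, clear of its 2 E-boxes, and in 3.19% of all promoters. The letters GGGCGG of the GC box were in 6 windows of 5 genes, Hrc and Casq1 among them, against 35.7% of all promoters. The letters AGGTCA, a nuclear receptor half-site, were in windows of Ryr2 and Jph2 (16.3% of all). The GATA motif AGATAA was in those of Pln and Slc8a1 (11.2%), and TATAAA in that of Pln (13.6%). TGATGNAA, the amino acid response element, was in 1 of the 3 windows of Cacna1c (3.97%). The cAMP response element TGACGTCA and the CArG box were in none of the 11 and in 1.79% and 1.63% of all promoters. These are matches of letters and say nothing of binding.

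Of the reuptake pair, Pln fell and the brightest probe set of Atp2a2 did not pass the test. Pln, the inhibitor of the pump, was at 13.64 and 13.85 in the 10-week WT hearts and at 12.94 and 13.23 in the KO hearts, without overlap. It fell by 0.66 ± 0.14 (SE, n = 2 per group; limma adjusted p = 0.0138), to 63.2% of WT. Without KO mouse 1 it was at -0.52 with an adjusted p of 0.101, and with only the arrays of this age in the fit the adjusted p was 0.0853.

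Atp2a2, the pump, was at 13.57 and 13.92 in WT and at 13.21 and 13.44 in KO. The groups did not overlap either, by a narrow margin. The difference was -0.42 ± 0.15 (SE, n = 2 per group), with a limma adjusted p of 0.105 and a 95% interval from -0.76 to -0.09. Without WT mouse 1 it was -0.60 with an adjusted p of 0.0305, without WT mouse 2 it was -0.25 (0.314), and without KO mouse 1 it was -0.31 (0.433). The KO change in Pln minus Atp2a2 was -0.24 at 10 weeks and -0.01 at 4 weeks. Relative to the 4-week WT mean, that difference was 0.11 and -0.03 in the 10-week WT hearts and -0.22 and -0.17 in the KO hearts, so the KO arrays lay below the WT arrays.

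The genes of the surface membrane and of the contact between the membranes did not pass the test. Cacna1c was at 7.16 and 7.79 in the 10-week WT hearts and at 7.24 and 7.64 in the KO hearts, a difference of -0.04 ± 0.21 (95% interval from -0.51 to 0.44). Jph2 was at 9.12 and 9.81 in WT and at 9.19 and 9.66 in KO, a difference of -0.04 ± 0.22 (95% interval from -0.54 to 0.47). In both genes the KO arrays lay inside the span of the WT arrays.

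The exchanger Slc8a1 had the widest scatter. Its WT arrays were at 6.91 and 8.01 and its KO arrays at 7.81 and 7.11, a difference of 0.01 ± 0.33 with a 95% interval from -0.75 to 0.76. The interval covers a fall as large as that of Pln, so no direction can be read for the exchanger from this probe set. The limma adjusted p was 0.951 for Cacna1c and for Jph2 and 0.996 for Slc8a1.

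**Figure D2:**
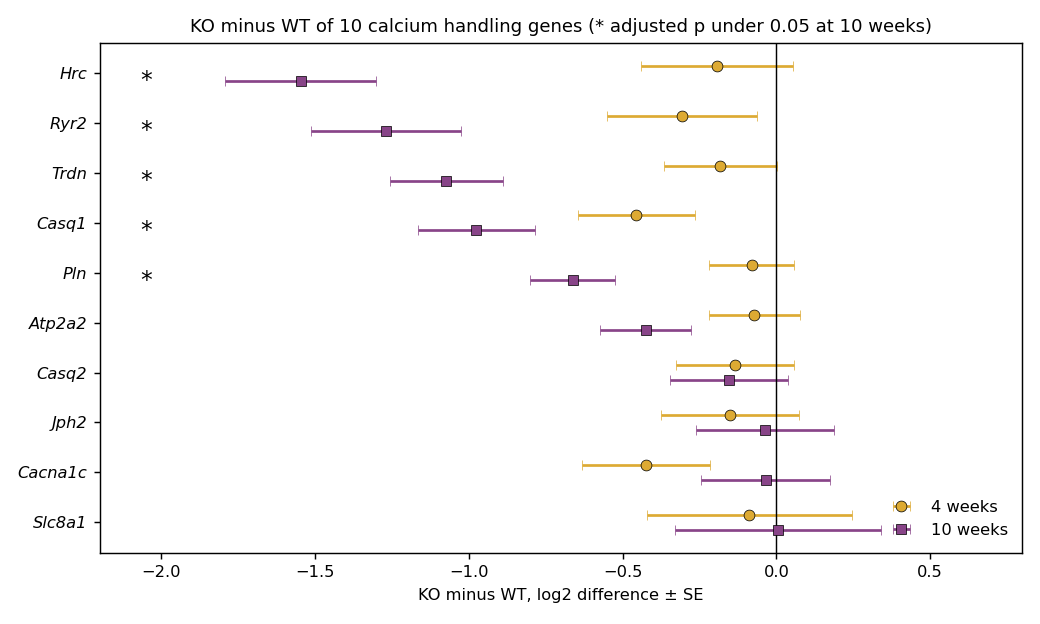
KO minus WT log2 difference ± SE of each gene at 4 weeks (circles) and at 10 weeks (squares), from limma over all 8 arrays; an asterisk marks an adjusted p under 0.05 at 10 weeks. The 10-week differences run from -1.55 for Hrc to 0.01 for Slc8a1 and the 4-week differences from -0.46 for Casq1 to -0.07 for Atp2a2.

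The 28 probe sets were also tested singly over all 34945, where 5.29% fell at 10 weeks. 12 of the 28 fell and none rose, and they belong to 6 genes: the 5 above and Atp2a2. All 3 Pln probe sets fell, by 0.66, 0.65 and 1.03 (limma adjusted p = 0.0152, 0.0451 and 0.0031). For Atp2a2, 2 of 6 fell, by 0.70 (adjusted p = 0.0373) and by 1.17 (adjusted p = 0.00908), while the other 4 were at -0.42, -0.06, -0.68 and -0.23. The probe set that fell by 1.17 is among the dimmer ones of the gene, at a mean log2 intensity of 7.18 where the brightest is at 13.69.

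Trdn has 6 probe sets, which the platform assigns to several transcript records. 4 fell, by 1.07, 0.997, 1.01 and 1.12, and 2 did not pass the test, at -0.15 (limma adjusted p = 0.796) and 0.30 (adjusted p = 0.489). Those 2 are assigned to the same transcript record as the probe set that fell by 0.997. The 2 that did not pass had mean log2 intensities of 8.61 and 7.72, within 1 log2 unit of 3 that fell. With the probe sets of each gene averaged in place of the brightest, Trdn was at -0.68 (adjusted p = 0.0571).

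Ryr2 has a second, much dimmer probe set at a mean log2 intensity of 5.25. It did not follow the first at 10 weeks, with a difference of -0.07, and the mean of both was -0.67 (adjusted p = 0.0621). On the 10-week arrays it was at 4.57 to 5.03, below the median of each array. Whether so low a level hid a fall was not tested. Averages of the gene take in this dim probe set. At 4 weeks, where the second probe set of Ryr2 was brighter, its difference was -0.59 and did not pass the test. At 10 weeks the second probe set of Cacna1c was at -0.20 and that of Jph2 at 0.23. Neither passed the test.

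The second-brightest Slc8a1 probe set was below WT in both KO arrays at 4 weeks and above WT in both at 10 weeks. The differences were -0.43 and 0.53, and neither they nor the change between the ages, 0.96, passed the test (limma adjusted p = 0.209 at 10 weeks and 0.212 for the change). The remaining 2 probe sets of the exchanger were at 0.05 and -0.21 at 10 weeks.

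**Figure D3:**
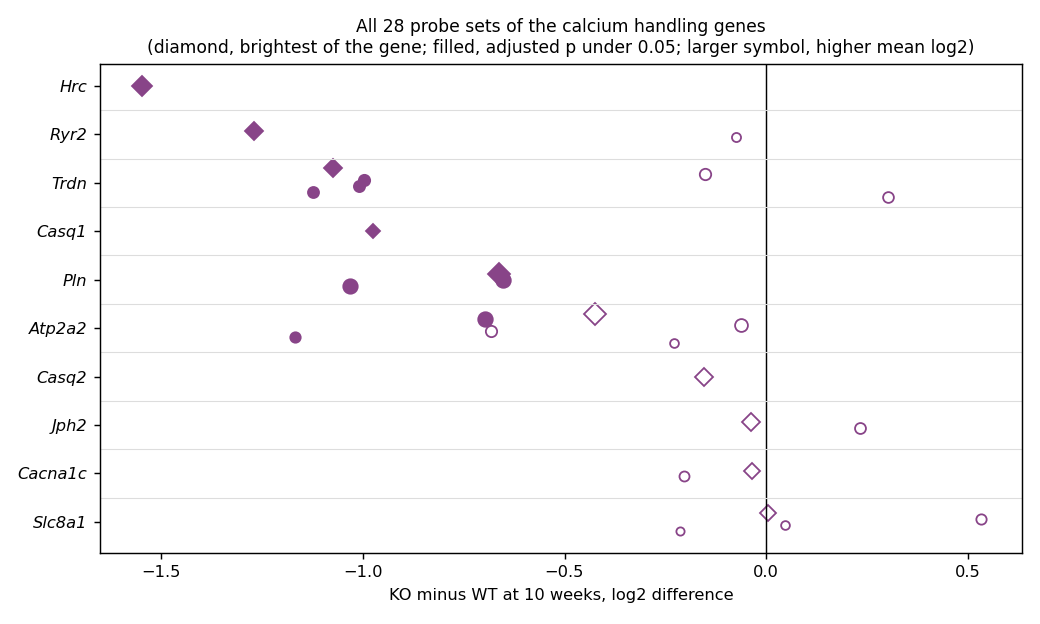
KO minus WT log2 difference at 10 weeks of all 28 probe sets, by gene; diamonds are the brightest probe set of each gene, filled symbols have an adjusted p under 0.05 over all probe sets, and larger symbols have a higher mean log2. The 3 probe sets of Pln are all filled, 4 of 6 are for Trdn, and 2 of 6 for Atp2a2.

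At 4 weeks none of the 10 genes passed the test, where 5 of 18193 genes did (0.0275%) and 679 had an unadjusted p under 0.05. All 10 differences were below 0, with a median of -0.17 against 0.01 over all genes, and all 10 had an adjusted p of 0.999 in limma. 1 of them, Casq1, had an unadjusted p under 0.05. For 9 genes, all but Slc8a1, both KO arrays lay below both WT arrays, an arrangement that 17.5% of all genes showed at 4 weeks and 23.5% at 10 weeks. The 9 genes share their arrays and are not independent of each other.

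Casq1 had the largest 4-week difference. It was at 8.31 and 8.40 in the 4-week WT hearts and at 7.71 and 8.09 in the KO hearts, a difference of -0.46 ± 0.19 (SE, n = 2 per group). Cacna1c came next, at 7.87 and 8.07 in WT and at 7.53 and 7.55 in KO, a difference of -0.42 ± 0.21 where it was -0.04 at 10 weeks. Ryr2 was at 10.92 and 10.85 in WT and at 10.40 and 10.76 in KO (-0.31 ± 0.25).

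The other 3 genes that fell at 10 weeks had 4-week differences between -0.19 and -0.08. Hrc was at 12.32 and 12.35 in WT and at 12.10 and 12.18 in KO, and Trdn at 10.97 and 10.94 in WT and at 10.69 and 10.85 in KO. Pln was at 13.82 and 13.83 in WT and at 13.72 and 13.78 in KO. In each the groups were apart by a small margin.

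The remaining 4 genes had differences of -0.15 (Jph2), -0.13 (Casq2), -0.09 (Slc8a1) and -0.07 (Atp2a2). Jph2 was at 9.87 and 9.97 in WT and at 9.76 and 9.77 in KO, and Casq2 at 11.78 and 11.86 in WT and at 11.68 on both KO arrays. The KO arrays of both genes lay just below the WT arrays. Atp2a2 was at 13.87 on both WT arrays and at 13.82 and 13.78 in KO. Slc8a1 was at 7.62 and 7.76 in WT and at 7.41 and 7.80 in KO, the only member whose 4-week groups overlapped.

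Whether the KO effect itself changed with age was tested as the 10-week difference minus the 4-week difference. None of the 10 genes passed in limma, where 2.08% of all genes did. By the same test 4 had an unadjusted p under 0.05 (Hrc, Trdn, Pln and Ryr2), as did 2535 of all 18193 genes. Hrc came nearest, at -1.35 ± 0.35 with an adjusted p of 0.0929. Ryr2 was at -0.96 (adjusted p = 0.231), Trdn at -0.89 (0.134) and Pln at -0.58 (0.198). The 10-week falls of these genes were therefore not shown to differ from their 4-week values by this test. Without 10-week WT mouse 1 the change passed for Hrc (-1.64, adjusted p = 0.0326) and Ryr2 (-1.39, adjusted p = 0.0156), and without KO mouse 2 of that age for Hrc (-1.73, adjusted p = 0.0437). Without 10-week WT mouse 2 it was -0.53 for Ryr2 (adjusted p = 0.184) and -1.07 for Hrc (0.0735), and with the 2 probe sets of Ryr2 averaged it was -0.22 for that gene.

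The difference between 10 and 4 weeks was below 0 for all 10 genes in both genotypes. Their median was -0.44 in WT and -0.57 in KO hearts, against 0.05 and 0.04 over all genes. Among genes at or above the median level it was -0.10 and -0.07, and among the cardiomyocyte markers -0.28 and -0.08. The share of all genes below 0 was not computed. In WT hearts 1 of 10 fell, where 0.066% of all genes did: Casq1, by 1.85 ± 0.19 (limma adjusted p = 0.00678), or 3.61-fold. With either of the 4-week WT mice left out no member passed, and without 10-week WT mouse 2 the number was 5, in a fit where 1907 of all genes fell, against 12 with every array kept. Casq1 is the gene whose 4-week and 10-week WT arrays lay farthest apart, at 8.31 and 8.40 against 6.58 and 6.42. Ryr2 in WT was at -0.99 with an adjusted p of 0.177.

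In KO hearts 5 of 10 fell with age, where 7.07% of all genes did. They are the genes that fell at 10 weeks against WT: Casq1 by 2.37 (5.18-fold, limma adjusted p = 0.000163), Ryr2 by 1.95 (3.86-fold, 0.00164), Hrc by 1.67 (0.00332), Trdn by 1.35 (0.00224) and Pln by 0.66 (0.0169). This comparison shares the 10-week KO arrays with the comparison against WT, and the 2 sets of results are not independent.

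The order of the 4 group means was the same for 8 of the 10 genes: 4-week WT highest, then 4-week KO, 10-week WT and 10-week KO. For Ryr2, Casq1 and Trdn all 3 neighbouring groups in that order were apart, with no array of one group inside the range of the next. For Hrc and Atp2a2 the middle groups, 4-week KO and 10-week WT, overlapped. For Casq2, Cacna1c and Jph2 only the 4-week groups were apart. The exceptions were Pln, where 10-week WT stood above 4-week KO and only 10-week KO was apart from its neighbour, and Slc8a1, where the 10-week groups were in reverse and all neighbours overlapped. The share of all genes with this order or these separations was not computed. With 2 arrays per group separation is common: KO and WT were apart in either direction for 36.9% of all genes at 4 weeks and 47.1% at 10 weeks.

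The genes closest to each other over the 8 arrays, by the root mean square distance of their log2 profiles after centring each on its own mean, were Atp2a2 and Pln (0.10), Casq2 and Jph2 (0.11) and Cacna1c and Jph2 (0.12). Hrc and Trdn lay at 0.20, and the farthest pair was Casq1 and Slc8a1 at 1.08. For the channel and its buffer, Casq2 minus Ryr2, relative to the 4-week WT mean, was 0.66 and 0.47 in the 10-week WT hearts and 1.70 and 1.65 in the KO hearts, which lay above. The KO change was 1.11 at 10 weeks and 0.17 at 4 weeks. The KO change in Hrc minus Trdn was -0.47 at 10 weeks, and that in Jph2 minus Cacna1c was 0.00 (-0.0032). Slc8a1 minus Atp2a2 was at -0.49 and 0.26 in WT and at 0.78 and -0.15 in KO, so the groups overlapped and no direction can be read. None of these changes was tested.

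The 5 named genes closest to Hrc over the 8 arrays, where the median distance over all genes was 0.81, were Abcc9 (0.10), Kcnip2 (0.13), Rbm38 (0.13), Msrb2 (0.14) and Fkbp4 (0.15). Abcc9 is the regulatory subunit of an ATP-sensitive potassium channel and Kcnip2 a subunit of the channel of the transient outward potassium current. The choice used the 10-week arrays, so a 10-week difference like that of Hrc was built into it and is given as a description: the 5 had differences from -1.76 (Fkbp4) to -1.299 (Rbm38). Those closest to Ryr2, where the median was 0.93, were Prepl (0.17), Fyco1 (0.19), Sox7 (0.20), Smco1 (0.21) and Cacna2d1 (0.22), an auxiliary subunit of the L-type channel. These were chosen in the same way and had differences from -1.75 (Smco1) to -0.77 (Cacna2d1).

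The wider calcium system was followed in 9 further lists, 111 measured genes of 128 listed. At 10 weeks 6 rose and 8 fell, 14 of 111 where 12.1% of all genes did either, and the median difference was 0.01. At 4 weeks none passed in limma. The lists are taken in the order of the calcium cycle.

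Around the release channel, 1 of 14 fell and none rose (median -0.02): Asph, whose locus encodes the store protein junctin, by 0.76 ± 0.16 (limma adjusted p = 0.0146). It was at 8.94 and 9.29 in WT and at 8.19 and 8.51 in KO. Without KO mouse 1 Asph was at -0.60 with an adjusted p of 0.11.

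Among 10 SERCA family members and regulators, 2 fell and 1 rose (median -0.17). Sarcolipin (Sln), a pump inhibitor made mainly in atria, was at 10.89 and 11.51 in WT and at 8.95 and 8.74 in KO, and fell by 2.35 ± 0.48 (limma adjusted p = 0.012). At 4 weeks it ran the other way, at 8.72 and 9.63 in WT and at 10.14 and 11.80 in KO, a difference of 1.80 that did not pass the test. Without either 10-week KO mouse the adjusted p was 0.0631 and 0.0789. Tmx1, a transmembrane thioredoxin-like protein of the reticulum, fell by 0.69 (adjusted p = 0.0116) and Hax1, a phospholamban-binding protein, rose by 0.77 (adjusted p = 0.00876). Tmx1 did not pass without either 10-week KO mouse (0.0655 and 0.0613) and Hax1 without KO mouse 2 (0.0586).

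Sln is also an atrial marker, and the atrial list is given beside it. 8 atrial markers were measured, of which Sln and Stard10 (by 1.34) fell and Nppa rose, by 1.04. Their summed intensity was 6882 to 10025 in the 4-week WT hearts, 13926 to 29604 in 4-week KO, 17043 to 25342 in 10-week WT and 24123 to 24514 in 10-week KO. A sum rests mostly on the brightest markers. The mean log2 intensity of the 8 was 8.54 and 9.07 in the 4-week WT hearts and 9.32 and 10.34 in KO. At 10 weeks it was 9.65 and 10.17 in WT and 9.51 and 9.27 in KO. The median difference of the list was 1.18 at 4 weeks and -0.54 at 10 weeks. How much atrium each sample held is not given in the sources used here, and its part in the Sln values was not tested.

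Of 18 subunits and inhibitors of voltage-gated calcium channels, 2 fell and 1 rose (median 0.06). Cacnb2, the beta subunit that carries the cardiac L-type pore to the membrane, was at 8.24 and 8.66 in WT and at 7.18 and 7.38 in KO. It fell by 1.17 ± 0.16 (limma adjusted p = 0.0016) under every alternative tried. Cacna2d1 fell by 0.77 (adjusted p = 0.0388) and Rrad, a small GTPase that restrains the L-type channel, rose by 0.76 (adjusted p = 0.0453). Each of these 2 lost the call with 5 of the 8 arrays left out in turn. Without WT mouse 2 Cacna2d1 was at -0.48, and without WT mouse 1 Rrad was at 0.50. Cacna1c, the pore these proteins serve, was at -0.04, and the differences between them were not tested.

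Of 10 genes of calcium extrusion and the sodium pump, 1 rose and none fell (median -0.13). Atp1b1, the beta subunit of the sodium pump, whose sodium gradient drives the exchanger, was at 10.53 and 11.21 in WT and at 12.19 and 12.35 in KO. It rose by 1.40 ± 0.20 (limma adjusted p = 0.00224), 2.64-fold. Of 11 dyad and T-tubule genes, 1 rose (median -0.06): Mtm1, a lipid phosphatase, by 0.59 (adjusted p = 0.0226). With the mean of its probe sets Mtm1 was at -0.34 and did not pass, nor did it without WT mouse 1 (0.48) or KO mouse 2 (0.47).

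The 8 genes of store-operated entry (median 0.00, 0.0039) and the 10 of mitochondrial calcium transport (median 0.00, 4.4e-05) held none that passed in limma. The lowest p in the first list were those of Orai3 (-0.51, adjusted p = 0.0736) and Orai1 (0.26, 0.329). In the second they were those of Smdt1, a subunit of the uniporter (-0.45, 0.0786), and Micu3 (0.42, 0.191).

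In the CaMKII, calcineurin and NFAT list, 1 of 15 rose and 1 fell (median 0.16). Rcan1, an inhibitor and transcriptional target of calcineurin, was at 7.07 and 8.23 in WT and at 8.97 and 9.26 in KO. It rose by 1.47 ± 0.31 (limma adjusted p = 0.0139), and the adjusted p was 0.0555 and 0.0978 without KO mouse 1 and KO mouse 2. Myoz2, which tethers calcineurin at the Z-disc, fell by 0.46 (adjusted p = 0.033), with an adjusted p of 0.119 and 0.132 without those mice.

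In the beta-adrenergic and protein kinase A list, 1 of 15 rose and 2 fell (median 0.05). Prkar1a, a regulatory subunit of protein kinase A, was at 10.56 and 10.63 in the 10-week WT hearts and at 12.02 and 12.34 in the KO hearts. It rose by 1.58 ± 0.15 (limma adjusted p = 0.000263), 2.996-fold, under every alternative tried. The catalytic subunit Prkaca fell by 0.59 (adjusted p = 0.0377) and the phosphodiesterase Pde4d by 0.85 (adjusted p = 0.0278). With the mean of their probe sets Prkaca and Pde4d were at -0.33 and -0.34 and did not pass, and both lost the call without KO mouse 2 (adjusted p = 0.0664 and 0.187).

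**Figure D4:**
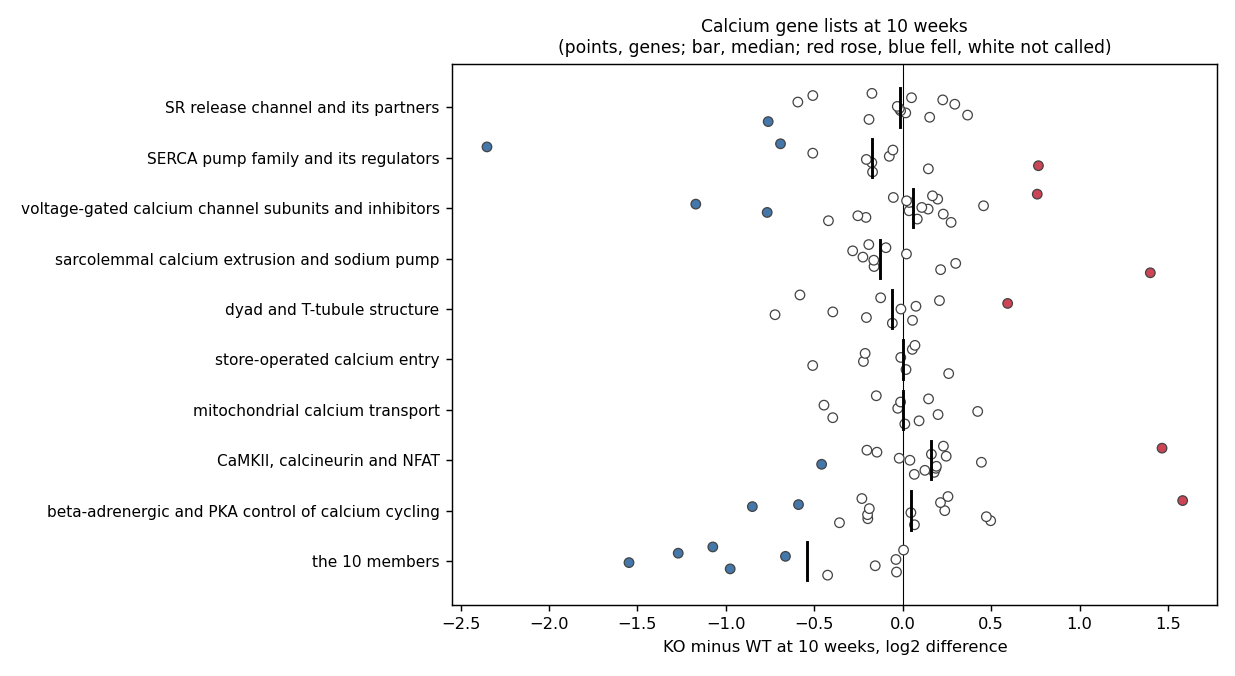
KO minus WT log2 difference at 10 weeks of the genes of 9 calcium lists and of the 10 members; each point is a gene, bars are list medians, red points rose, blue fell and white did not pass the test. The bar of the 10 members is at -0.54 and those of the other lists lie between -0.17 and 0.16.

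Cell composition and RNA quality were measured beside these results. In whole heart RNA, fewer cells of a type and less RNA per cell cannot be told apart. Of the 13 cardiomyocyte markers, Mybpc3 (by 0.98) and Tbx20 (by 1.11) rose at 10 weeks and Tnni3 fell by 0.52, each losing the call with at least 1 array left out. Of 8 fibroblast markers 7 rose, and their sum was 6313 to 8375 in WT and 20562 to 21047 in KO. Of 8 macrophage markers 3 rose, with sums of 4415 to 5052 in WT and 6288 to 7695 in KO. 1 of 7 endothelial markers rose, with sums of 1592 to 2128 in WT and 1740 to 1875 in KO. 1 of 6 smooth muscle markers rose, with sums of 3055 to 4365 in WT and 3515 to 4139 in KO. Among the liver markers none passed in limma, and among the 5 kidney markers 1 fell. The part of these cell types in the falls of the calcium handling genes was not tested. With every array set relative to its 13 cardiomyocyte markers, an alternative added after the data were seen, the same 5 genes fell and Atp2a2 with them (-0.60, adjusted p = 0.0375). That scaling moved the median of all genes by -0.17, and 486 genes rose and 1587 fell under it, against 945 and 1254. The shift rests largely on 10-week WT mouse 1, the array that stood apart. The mean log2 intensity of the 13 markers was 12.40 on it and 12.75 on WT mouse 2. On the 10-week KO arrays it was 12.69 and 12.80. RNA integrity, read as the 3′ minus 5′ log2 difference of control probe sets, differed between 10-week KO and WT hearts by 0.07 for Gapdh and by 0.08 for Actb, KO being above WT.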

How the data were processed

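The deposited values are probe set intensities on a linear scale, made by the authors. The submitters' processing notes name GCOS 1.3 and RMA. Their order and the RMA version are not given in the sources used here. RMA equalises the arrays' distributions, so a change shared by most genes would be lost. Log2 of the deposited intensities was taken here. Of 45101 probe sets, 64 controls, 932 naming several genes and 9160 naming none were left out. No filter was set on dim genes, so all members were tested. The 34945 left cover 18193 genes, of which 34741 probe sets matched RefSeq. Each gene was tested on its brightest probe set, in limma 3.58.1 (R 4.3.3) with 1 mean per group over all 8 arrays, two-sided, and was checked on simulated data.

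The 10 members, the lists and the markers were chosen with earlier results of these data known. All members are named, and from each other list up to 4 genes that passed at 10 weeks, or the 2 of lowest p where none did. The 5 likest genes are given for the 2 members that fell most, without clone-like symbols. Listed genes absent from the annotation were not analysed here. Alternatives were other probe set rules, a filter on dim genes, 2 normalizations, 2 other settings of the fit, fewer arrays, a replicate block, each array left out in turn, and the added cardiomyocyte scaling. The labels do not say that mouse numbers pair animals, and no pairing was used. 1 single-gene result, the check of the targeted gene, is not reported here.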

Additional observations from a re-analysis of the deposited data

Results flagged for a closer look

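Among the genes of the calcium and marker lists that are named, 9 had a KO effect that differed between the ages by the interaction test in limma, given as the 10-week difference minus the 4-week difference on the log2 scale. Most named genes were picked for passing at 10 weeks. The interaction holds that same 10-week difference, so the choice favours such calls. In the calcium lists these were Sln at -4.15 (adjusted p = 0.0211), Atp1b1 at 1.33 (0.0493) and Prkar1a at 1.55 (0.00993). They are 2 higher and 1 lower of 111 measured genes, where 2.08% of all genes passed. Sln moved from a positive difference at 4 weeks to a fall at 10 weeks. Among the markers they were the atrial Stard10 at -2.18 and the skeletal Mybpc2 at -1.27. The fibroblast markers Col1a1, Col3a1 and Postn were at 1.71, 1.73 and 3.07, and the macrophage marker Cd68 was at 1.61. None of the 10 calcium handling members is among them. Of the 9, only Postn kept the call under every alternative tried, including each array left out. Prkar1a was lost without either 4-week WT mouse (adjusted p = 0.0557 and 0.0878) and without 4-week KO mouse 2 (0.0622).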

How the results depend on the processing

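Of the 5 members that fell at 10 weeks, 3 passed with the probe sets of each gene averaged (Casq1, Hrc and Pln; 11.7% of all genes passed) and 3 with only the arrays of that age (Casq1, Hrc and Trdn; 5.27%), against 12.1% of all genes in the fit reported. With each array left out the number ran from 3, without KO mouse 1 (6.34% of all genes), to 7, without WT mouse 1 (11%). At 4 weeks none passed in limma under any alternative. For the change of the KO effect with age, where none passed, 3 did relative to the cardiomyocyte markers (Ryr2, Hrc and Trdn; 2.45% of all genes against 2.08%), and 0 to 2 with each array left out. A replicate block by mouse number, which the labels do not establish as a pairing (same-numbered mice deviated from their group means with r = 0.30 at 4 weeks and 0.23 at 10 weeks across genes), gave 6 members at 10 weeks, Atp2a2 being added (-0.42, adjusted p = 0.042), and 2 for the change with age (Hrc and Trdn). The block raised calls over all genes as well, to 15.6% at 10 weeks and 4.13% for the change with age. With age, 0 to 5 members fell in WT hearts and 4 to 7 in KO hearts with each array left out. In the 9 other lists 14 genes passed at 10 weeks, 22 with any probe set of a gene counted, and 6 to 21 with each array left out.

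Signs turned for 4 of the 10 members, none of which passed in the fit reported. At 10 weeks Casq2 was at 0.013 and Jph2 at 0.079 after a further quantile normalization, and Jph2 at 0.097 with the mean of its probe sets. Slc8a1 was at -0.011 with arrays centred on their medians and at -0.17 relative to the cardiomyocyte markers. For the change with age, Casq2 was at 0.17 after quantile normalization, and relative to the cardiomyocyte markers Slc8a1 was at -0.15 and Jph2 at -0.13. With each array left out, the 10-week difference ran from -0.49 to 0.18 for Casq2, from -0.35 to 0.28 for Cacna1c, from -0.54 to 0.55 for Slc8a1 and from -0.38 to 0.31 for Jph2. The change with age ran from -0.36 to 0.31 for Casq2, from -0.46 to 0.64 for Slc8a1 and from -0.23 to 0.46 for Jph2, and the 4-week difference of Slc8a1 from -0.28 to 0.11. The causes were not tested. Groups of 2 arrays limit the precision throughout.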
